A study of Mus musculus with 9 samples.

Results

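The transcripts described here encode 6 G protein-coupled receptors of mouse thymic epithelium, Gper1, Galr2, Prokr1, Ptger4, Adra1a and Gpr126. They are 6 of the 38720 genes in the counts table and were taken by name, having been picked because their levels in this same table moved with Foxn1. Their levels and differences are therefore given as descriptions with errors and without p-values. A name that calls all of them Foxn1-dependent covers different patterns: Gper1 and Galr2 were lower both in cortical cells from which Foxn1 was deleted and in cortical cells with the lower transgene dose, Ptger4 was higher in both, and Prokr1, Adra1a and Gpr126 moved with transgene dose while their deletion differences did not pass the threshold.

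RNA was sequenced from sorted thymic epithelial cells (TEC) of the cortex (cTEC, CD45- EpCAM+ MHCII+ Ly51+ UEA1-) and of the medulla (mTEC, CD45- EpCAM+ MHCII+ Ly51- UEA1+) in 20 libraries. In the transgenic set, all mice were on the nude background (nu/nu), which lacks functional Foxn1 of its own, and carried FLAG-tagged Foxn1 (wt*) on a bacterial artificial chromosome, either on 1 allele (heterozygous, wt*/-::nu/nu, 3 cTEC and 2 mTEC libraries) or on both (homozygous, wt*/wt*::nu/nu, 3 cTEC and 2 mTEC libraries). No transgenic library comes from mice with the normal Foxn1 locus, so the comparison is between 2 labelled transgene doses. In the deletion set, all mice were homozygous for beta5t-rtTA, a transactivator driven from a gene of cortical epithelium, were Foxn1 fl/fl and had received doxycycline 72 h before. Of these, the 5 deleted cTEC libraries came from mice heterozygous for tetO-Cre1Jaw/J, which removes exons 7 and 8 of Foxn1, and the 5 control cTEC libraries from mice lacking it. No age, sex or number of animals behind a library was given, so the p-values printed for other genes measure the spread between these libraries, which may be technical.

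FOXN1 is the forkhead transcription factor on which thymic epithelial differentiation depends, and nude mice, in which it is not functional, lack a thymus. G protein-coupled receptors cross the membrane repeatedly and, once a hormone, peptide, lipid or matrix protein binds outside, activate G proteins inside. Those of the Gs class raise cyclic AMP through adenylyl cyclases, those of the Gi class lower it, and those of the Gq class act through phospholipase C and calcium, until kinases, arrestins and RGS proteins end the signal. Cortical epithelium guides the early steps of T cell development and medullary epithelium displays antigens of other tissues.

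The libraries held 20719630 to 22372633 counts each. The cTEC libraries of both sets contained cTEC markers (Psmb11, Prss16, Ly75, Enpep, Ctsl and Tbata) and little mTEC marker RNA: the summed mTEC markers (Aire, Fezf2, Cd80, Cldn3, Cldn4 and Tnfrsf11a) lay between 7.85 and 48.8 CPM, the count scaled to the library total, in the cTEC libraries and between 1632 and 2092 CPM in the mTEC libraries. Foxn1 itself averaged 1364.0 ± 103 CPM in homozygous and 1166 ± 38.0 in heterozygous transgenic cTEC (mean ± SD, n = 3), a log2 difference of -0.36 ± 0.06. In mTEC the order was the opposite, 318 ± 15.5 in homozygous and 495 ± 9.83 CPM in heterozygous libraries (n = 2), a log2 difference of 0.66 ± 0.08, so that Foxn1 RNA goes against the labelled dose there. Dose and the names of the mTEC groups below therefore mean the labelled genotype alone. Foxn1 stood at 454 ± 91.6 in control against 434 ± 81.1 in deleted cTEC (n = 5). These counts cover the whole gene and do not measure the loss of exons 7 and 8. In the transgenic set they do not separate transcripts of the transgene from any of the nude locus. Within each group, the libraries varied beyond what counting error allows.

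The stretch around a RefSeq transcription start is shown for the pair that was lower in both settings and for a pair that was not. GACGC contains the core that FOXN1 is known to bind, and TGTTTAC is the motif bound by many other forkhead factors. Each line gives 250 bases before to 50 bases after a RefSeq start on GRCm38.p6, read 5′ to 3′ on the gene's strand. Capitals mark a match to either motif on either strand. The Galr2 and Gpr126 windows lie inside the RefSeq spans of their genes (chr11:116280106-116283950 and chr10:14402583-14545723). These 2 windows therefore do not cover the outer 5′ end of the span. Gper1 lies at chr5:139422929-139423228 (+), Galr2 at chr11:116280689-116280988 (+), Ptger4 at chr15:5244138-5244437 (−) and Gpr126 at chr10:14544987-14545286 (−).
Gper1: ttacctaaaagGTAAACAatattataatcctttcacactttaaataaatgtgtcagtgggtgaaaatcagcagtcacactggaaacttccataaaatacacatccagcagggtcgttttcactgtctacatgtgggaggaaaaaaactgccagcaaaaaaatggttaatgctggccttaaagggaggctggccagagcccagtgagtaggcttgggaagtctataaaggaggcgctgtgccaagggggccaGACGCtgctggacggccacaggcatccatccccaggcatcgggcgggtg
Galr2: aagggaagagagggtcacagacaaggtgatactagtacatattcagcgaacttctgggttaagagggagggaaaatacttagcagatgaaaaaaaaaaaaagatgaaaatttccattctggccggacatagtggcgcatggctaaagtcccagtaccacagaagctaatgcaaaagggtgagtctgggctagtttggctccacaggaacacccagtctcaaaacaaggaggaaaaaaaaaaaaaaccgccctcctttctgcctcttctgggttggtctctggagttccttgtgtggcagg
Ptger4: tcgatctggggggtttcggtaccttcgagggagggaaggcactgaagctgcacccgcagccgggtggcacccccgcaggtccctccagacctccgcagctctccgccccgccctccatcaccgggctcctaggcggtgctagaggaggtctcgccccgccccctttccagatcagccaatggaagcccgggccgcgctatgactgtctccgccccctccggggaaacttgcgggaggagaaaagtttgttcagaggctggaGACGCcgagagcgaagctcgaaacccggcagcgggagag
Gpr126: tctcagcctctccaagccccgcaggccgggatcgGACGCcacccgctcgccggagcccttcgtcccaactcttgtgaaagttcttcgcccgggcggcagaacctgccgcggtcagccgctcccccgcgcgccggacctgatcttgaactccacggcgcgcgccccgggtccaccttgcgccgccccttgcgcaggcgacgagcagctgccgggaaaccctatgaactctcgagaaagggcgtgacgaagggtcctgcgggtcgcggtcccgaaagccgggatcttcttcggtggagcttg

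Counted from the left end, the Gper1 window held GACGC at bases 252 to 256, just past the start, and the reverse complement of TGTTTAC at bases 12 to 18. The Ptger4 window held GACGC at bases 262 to 266 and the Gpr126 window at bases 35 to 39, and the Galr2 window, like that of Prokr1 at chr6:87590694-87590993 (−), held neither. Windows were found for 5 of the 6 genes. The GACGC motif or its reverse complement was present in 27.2% of 32851 promoter windows of this length and TGTTTAC in 3.65%, so the matches are descriptions of the letters. GC content was 67.0% in the Ptger4 window and 69.0% in that of Gpr126, against 48.3% for Gper1, 45.7% for Galr2 and a median of 52.7% over all windows. GACGC stood in the window of 1 receptor that was lower and of 2 that were higher in heterozygous cTEC. The windows without it belonged to Galr2, which was lower there, and to Prokr1, which was higher. Whether the motifs bear on the direction was not tested.

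**Figure D1:**
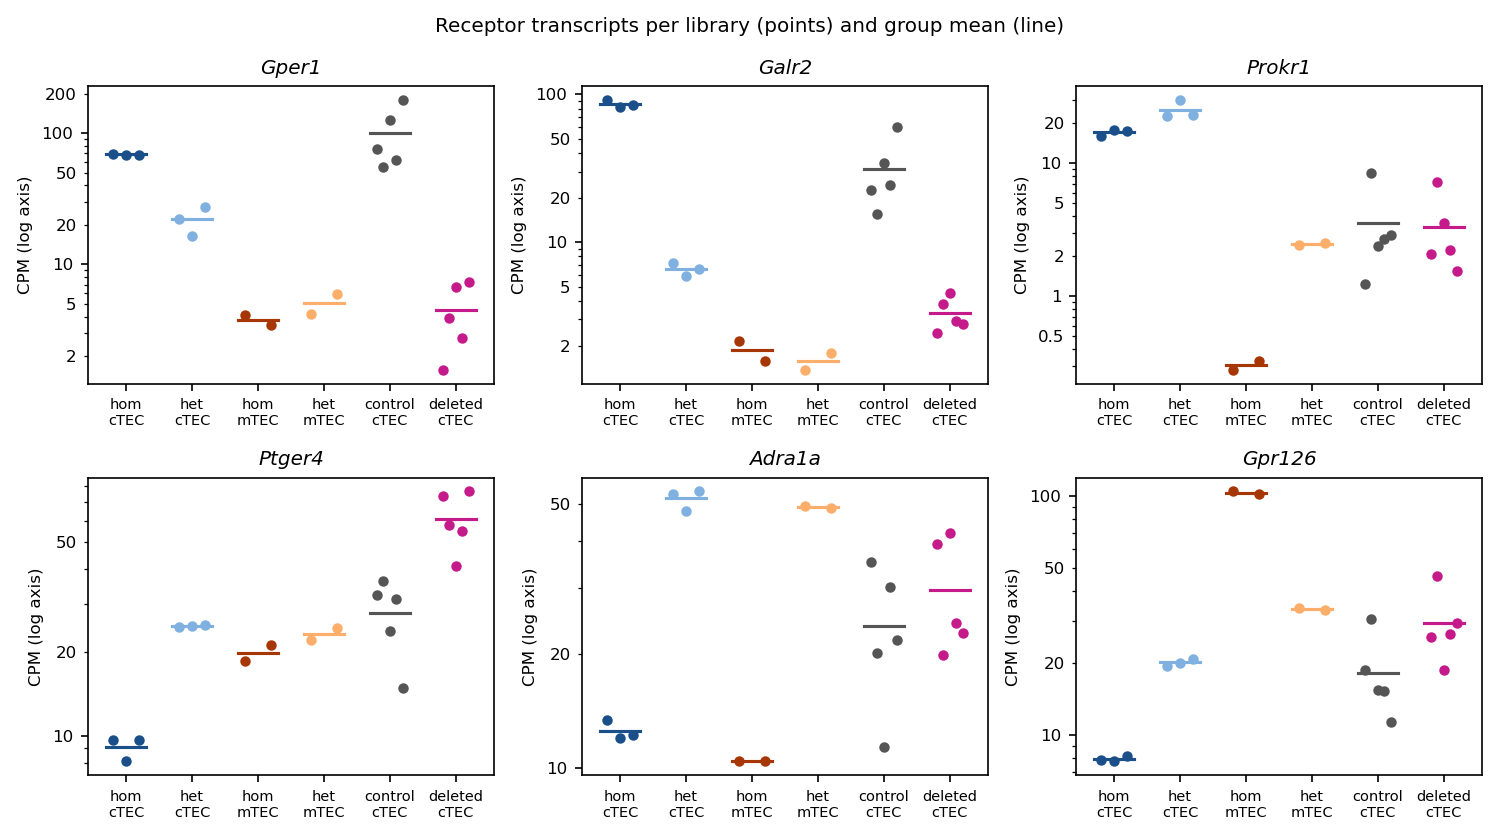
CPM of each receptor in each of the 20 libraries (points, log axis) with the group mean (line); hom and het are the homozygous and heterozygous transgenic mice, control and deleted the doxycycline-treated Foxn1 fl/fl mice. Gper1 and Galr2 are high in hom and control cTEC and low in deleted cTEC and mTEC, Gpr126 is highest in hom mTEC at 103.1 CPM, and Adra1a is high in both het groups.

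Gper1 encodes a membrane receptor that responds to estrogen and has been linked to estrogen-induced thymic shrinkage in mice. Its level in the 5 control cTEC libraries was 76.0, 55.0, 126.7, 62.8 and 180.0 CPM, and in the 5 deleted libraries 1.57, 3.88, 6.75, 2.76 and 7.34 CPM. The groups did not overlap, and the lowest control stood well above the highest deleted library. The fitted log2 difference, deleted minus control, was -4.53 ± 0.49 (SE).

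In the transgenic mice, Gper1 was at 69.6, 68.3 and 68.6 CPM in homozygous cTEC and at 22.0, 16.4 and 27.6 CPM in heterozygous cTEC, again without overlap. The log2 difference, heterozygous minus homozygous, was -1.78 ± 0.14. In mTEC the receptor was low at both doses, with 4.12 and 3.47 CPM in homozygous and 4.19 and 5.90 CPM in heterozygous libraries, and the dose difference of 0.43 ± 0.27 did not pass the threshold. The order of the group means ran from control over homozygous cTEC and heterozygous cTEC down to heterozygous mTEC, deleted cTEC and homozygous mTEC. The homozygous cTEC libraries lay inside the range of the controls, and the deleted libraries spanned both mTEC groups.

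The RefSeq span of Gper1 (chr5:139423150-139427800) lies inside that of another protein-coding gene, 3110082I17Rik. Whether counting used strand is not given in the sources used here, so reads of the overlap cannot be assigned with certainty. 3110082I17Rik itself was at 7.55 ± 0.92 CPM in deleted and 11.99 ± 1.86 in control cTEC (n = 5), a log2 difference of -0.69 ± 0.14 (edgeR quasi-likelihood adjusted p = 0.0356), much smaller than that of Gper1, and the call was lost on leaving out control library 3 or 5 or any 1 of the deleted libraries, with values from -0.74 to -0.60. In mTEC it was higher in heterozygous libraries (0.63 ± 0.13, edgeR adjusted p = 0.00111).

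Galr2 encodes a receptor for the neuropeptide galanin that couples chiefly to Gq. In homozygous cTEC it reached 92.1, 81.9 and 84.1 CPM, and in heterozygous cTEC 7.22, 5.93 and 6.56 CPM. No heterozygous library came near a homozygous one, and the log2 difference was -3.84 ± 0.10. Deleted cTEC stood lower as well: the controls held 22.6, 15.5, 34.3, 24.2 and 60.3 CPM and the deleted libraries 2.45, 3.79, 4.50, 2.94 and 2.80 CPM, with no overlap and a log2 difference of -3.29 ± 0.38.

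In mTEC, Galr2 was near the bottom of its range at both doses, with 2.13 and 1.57 CPM in homozygous and 1.37 and 1.79 CPM in heterozygous libraries. These 4 values overlapped, and the dose difference was -0.21 ± 0.23. The order of the means was homozygous cTEC, control, heterozygous cTEC, deleted cTEC, homozygous mTEC and heterozygous mTEC, and only the last pair of neighbours overlapped.

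The genes on either side of Galr2 (chr11:116280106-116283950) were looked up after the receptor's values were seen. Distances are between gene spans in coordinates, without regard to strand. Exoc7, a subunit of the exocyst that tethers secretory vesicles, lies 4047 bases beyond Galr2. Exoc7 fell in heterozygous cTEC from 680.8 to 197.7 CPM (-1.92 ± 0.05, edgeR adjusted p = 3.79e-11). In deleted cTEC it fell from 334.9 to 135.3 CPM (-1.34 ± 0.24, edgeR adjusted p = 0.0213). Srp68, part of the signal recognition particle, lies 5889 bases before Galr2. Srp68 fell in heterozygous cTEC by 1.12 ± 0.05 on the log2 scale (edgeR adjusted p = 3.20e-09) and in deleted cTEC by 0.72 ± 0.15 (edgeR adjusted p = 0.0365). The deletion call of Exoc7 was lost without control library 3 or deleted library 1, 2, 4 or 5, at -1.36 to -1.27, and that of Srp68 without control library 1 or 3 or any 1 of the deleted libraries, at -0.77 to -0.67. In mTEC, the dose difference of Exoc7 was 0.15 ± 0.07 (edgeR adjusted p = 0.0679) and Srp68 was higher in heterozygous libraries (0.29 ± 0.07, edgeR adjusted p = 0.00208).

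Control libraries 3 and 5 had the highest Gper1 and Galr2 of their group. The summed cTEC markers also differed widely among the controls, from 5816 to 20490 CPM, with libraries 5 and 3 at the top, and lay between 2753 and 3137 CPM in the deleted libraries. In the transgenic cTEC, the same sum was 15320 to 17050 CPM in homozygous and 2170 to 2525 CPM in heterozygous libraries. In mTEC it was 1144 to 1320 CPM in homozygous and 681.5 to 734.4 CPM in heterozygous libraries, with 6 of 6 markers lower in the heterozygous ones. The part of this RNA in the mTEC levels of the receptors was not tested. Of the 6 cTEC markers, 4 were lower in deleted and 6 in heterozygous cTEC, and several are themselves known FOXN1 targets. Fewer cells of a type and less RNA per cell cannot be told apart in bulk libraries, and the part of cell composition in these falls was not tested.

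Prokr1 encodes a receptor for the prokineticins, small secreted proteins named for their action on gut muscle, and couples to Gq. In cTEC it was the receptor least moved by dose: homozygous libraries held 16.0, 17.9 and 17.4 CPM and heterozygous ones 22.6, 30.1 and 23.1 CPM. The groups did not overlap, and the heterozygous libraries were higher by 0.43 ± 0.11 (log2). In mTEC the receptor was close to absent in homozygous libraries, with 0.278 and 0.324 CPM from 6 and 7 counts, and stood at 2.40 and 2.50 CPM from 51 and 53 counts in heterozygous ones. The mTEC dose difference was 3.02 ± 0.33.

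In the deletion set Prokr1 showed no difference beyond the spread. The controls held 1.23, 8.48, 2.39, 2.67 and 2.86 CPM and the deleted libraries 2.08, 7.21, 3.54, 2.20 and 1.54 CPM, the groups overlapped, and the log2 difference was -0.10 ± 0.53. Library 2 of either group was the highest. The order of the means was heterozygous cTEC, homozygous cTEC, control, deleted cTEC, heterozygous mTEC and homozygous mTEC, and the third to the fifth overlapped. Control cTEC thus lay below both transgenic cTEC groups without overlap, a contrast between different mouse lines that was not tested.

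Prokr2, the other prokineticin receptor, is the closest relative of Prokr1 and followed another course. It was at 21.1 ± 2.88 CPM in homozygous and 2.22 ± 0.51 in heterozygous cTEC (n = 3), a log2 difference of -3.37 ± 0.17 (edgeR adjusted p = 6.77e-09). In mTEC it was at 45.4 ± 3.02 CPM in homozygous and 5.09 ± 1.41 in heterozygous libraries (n = 2), a difference of -3.13 ± 0.19 (edgeR adjusted p = 5.51e-08). Prokr1 was thus higher and Prokr2 lower in heterozygous libraries of both compartments. In deleted cTEC Prokr2 was at 15.3 ± 5.89 CPM against 62.0 ± 28.7 in controls (n = 5), -2.06 ± 0.34 (edgeR adjusted p = 0.0170), a call that was lost without control library 3 (-2.08), deleted library 1 (-1.94) or deleted library 4 (-2.05).

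**Figure D2:**
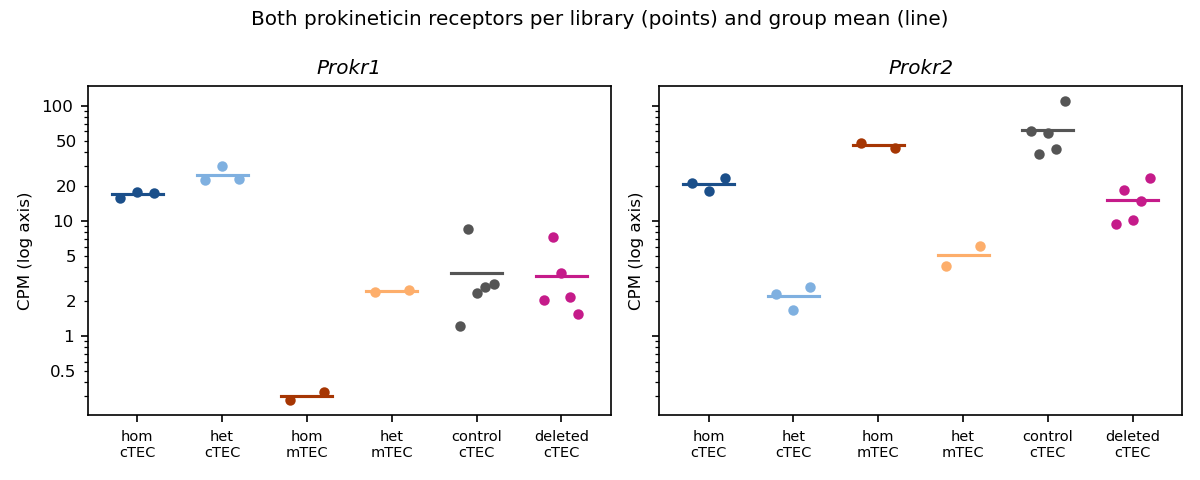
CPM of Prokr1 and Prokr2 in each library (points, log axis) with group means (lines); groups as in the plot of all receptors. From hom to het, Prokr1 goes up from 17.1 to 25.3 CPM in cTEC and from 0.301 to 2.45 CPM in mTEC, while Prokr2 goes down from 21.1 to 2.22 and from 45.4 to 5.09 CPM.

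Ptger4 encodes EP4, a receptor for prostaglandin E2 that couples to Gs. Its 5 deleted cTEC libraries held 73.5, 57.9, 41.2, 55.0 and 76.7 CPM and the controls 32.4, 36.3, 23.9, 31.2 and 14.9 CPM. The groups did not overlap, and the difference was 1.12 ± 0.23 on the log2 scale. It no longer passed the threshold when control library 1 or 3, or deleted library 1, 2, 4 or 5 was left out, with values between 1.03 and 1.20 in those fits. Control libraries 3 and 5, highest in Gper1 and Galr2, were the lowest in Ptger4.

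In the transgenic cTEC, Ptger4 was at 9.63, 8.07 and 9.65 CPM in homozygous and 24.6, 24.9 and 25.1 CPM in heterozygous libraries, a log2 difference of 1.31 ± 0.09 without overlap. In mTEC, the homozygous libraries held 18.6 and 21.3 CPM and the heterozygous ones 22.3 and 24.5 CPM, and the difference of 0.26 ± 0.11 did not pass the threshold, although it did when 1 of 3 other libraries was left out (0.26 without heterozygous or homozygous cTEC library 2, 0.36 without homozygous mTEC library 2). Deleted cTEC was the highest group and homozygous cTEC the lowest, and the range of the controls took in heterozygous cTEC and both mTEC groups.

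The other prostaglandin E receptors are given for comparison. Ptger1, which signals through calcium, was at 14.4 ± 1.66 CPM in heterozygous and 13.1 ± 1.89 in homozygous cTEC (n = 3) and at 16.6 ± 1.34 in deleted and 16.3 ± 1.13 in control cTEC (n = 5). Ptger2, the other Gs-coupled member, stayed between 0.186 and 0.393 CPM on average in the 4 cTEC groups and between 2.94 and 3.28 CPM in mTEC. Ptger3, a Gi-coupled member, averaged 7.86 ± 3.14 CPM in deleted and 10.2 ± 3.00 in control cTEC (n = 5), and in mTEC it was lower in heterozygous libraries (-0.61 ± 0.20, edgeR adjusted p = 0.0175), a call lost without any 1 of the 4 mTEC libraries, at -0.67 to -0.54. Whether Ptger4 differs from these relatives was not tested.

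Adra1a encodes an alpha-1 adrenergic receptor for noradrenaline and adrenaline that couples to Gq. Its level was higher in the libraries labelled heterozygous in both compartments, in mTEC together with a higher Foxn1 level. In cTEC it went from 13.4, 12.01 and 12.3 CPM in homozygous to 53.1, 47.9 and 54.1 CPM in heterozygous libraries, and in mTEC from 10.4 and 10.5 to 49.3 and 48.9 CPM. Neither pair of groups overlapped, and the log2 differences were 1.91 ± 0.07 in cTEC and 2.26 ± 0.09 in mTEC. The difference between these dose effects, 0.35 ± 0.12, passed the threshold in this fit but not with other scalings of the libraries, with DESeq2 or with low counts kept (0.19 to 0.31), nor when 1 of 6 libraries was left out (0.29 to 0.36).

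In the deletion set Adra1a was spread widely. The controls held 35.0, 20.2, 11.4, 30.1 and 21.8 CPM and the deleted libraries 39.2, 20.0, 41.8, 24.2 and 22.8 CPM, with overlap and a log2 difference of 0.31 ± 0.31. By group means, both heterozygous groups came first and overlapped each other, followed by deleted and control cTEC, which overlapped, and then by homozygous cTEC and homozygous mTEC. The lowest control library fell between those last groups.

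Gpr126, named Adgrg6 in RefSeq, encodes an adhesion receptor that couples to Gs, binds collagen and laminin chains, and is required for myelination by Schwann cells in zebrafish and mice. Its dose difference passed the threshold in both compartments with opposite signs; for Gper1, the other receptor with opposite signs, that in mTEC did not pass. In cTEC it was at 7.85, 7.75 and 8.18 CPM in homozygous and 19.5, 20.0 and 20.8 CPM in heterozygous libraries, a log2 difference of 1.21 ± 0.07. In mTEC it was at 104.8 and 101.5 CPM in homozygous and 33.9 and 33.5 CPM in heterozygous libraries, a difference of -1.59 ± 0.07. Neither pair of groups overlapped.

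In the deletion set, Gpr126 was at 25.7, 46.4, 18.7, 26.5 and 29.4 CPM in deleted and 18.6, 30.5, 15.5, 15.3 and 11.3 CPM in control libraries. The groups overlapped, with library 2 the highest of either, and the difference of 0.67 ± 0.27 did not pass the threshold. Homozygous mTEC was the highest group, without overlap with any other. Heterozygous mTEC, deleted cTEC, heterozygous cTEC and control cTEC followed, each overlapping its neighbour, and homozygous cTEC was the lowest.

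RNA of other cell types moved with some of these groups. The summed fibroblast markers (Col1a1, Col1a2, Col3a1, Pdgfra, Pdgfrb, Dcn and Lum) were 37.4 to 39.8 CPM in homozygous and 218.9 to 241.8 CPM in heterozygous cTEC, with 4 of 7 markers higher, and 346.8 to 834.0 CPM in control against 772.7 to 1416 CPM in deleted cTEC, with 0 of 7 past the edgeR threshold, 1 at an unadjusted p under 0.05 and 1 higher by DESeq2. The summed thymocyte markers (Cd3e, Cd3d, Cd3g, Cd4, Cd8a, Cd8b1, Rag1, Rag2, Lck, Ptcra, Thy1 and Bcl11b) were 76.6 to 113.6 CPM in homozygous and 23.6 to 31.5 CPM in heterozygous cTEC, with 12 of 12 lower, as Gper1 and Galr2 were. In mTEC they were 105.8 to 121.4 CPM in homozygous and 76.9 to 77.9 CPM in heterozygous libraries, with 11 of 12 lower and 1 higher. In the deletion set they ranged from 82.9 to 555.3 CPM in control and from 76.8 to 413.4 CPM in deleted libraries, with 0 of 11 tested past the threshold, 2 at an unadjusted p under 0.05 and 0 by DESeq2. In mTEC, the macrophage and dendritic cell markers (Itgam, Itgax, Csf1r, Emr1, Lyz2, Cd68, C1qa, C1qb, Mrc1 and Tyrobp) summed to 582.0 to 682.3 CPM in homozygous and 111.0 to 114.7 CPM in heterozygous libraries, none at 0 and 9 of 10 lower, against 4.09 to 8.57 CPM in the transgenic cTEC libraries. In the deletion set these markers summed to 9.57 to 42.7 CPM in control and 7.85 to 55.6 CPM in deleted cTEC, with 0 of 9 tested past the edgeR threshold. Endothelial markers (Pecam1, Cdh5, Kdr, Tek, Emcn and Tie1) summed to between 1.51 and 25.5 CPM in cTEC and between 17.2 and 42.3 CPM in mTEC libraries. The general TEC markers (Epcam, Foxn1, Krt8, Krt18, Krt5 and Krt14) summed to between 4008 and 9491 CPM over all libraries. The part of these cells in the levels of the receptors was not tested.

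**Figure D3:**
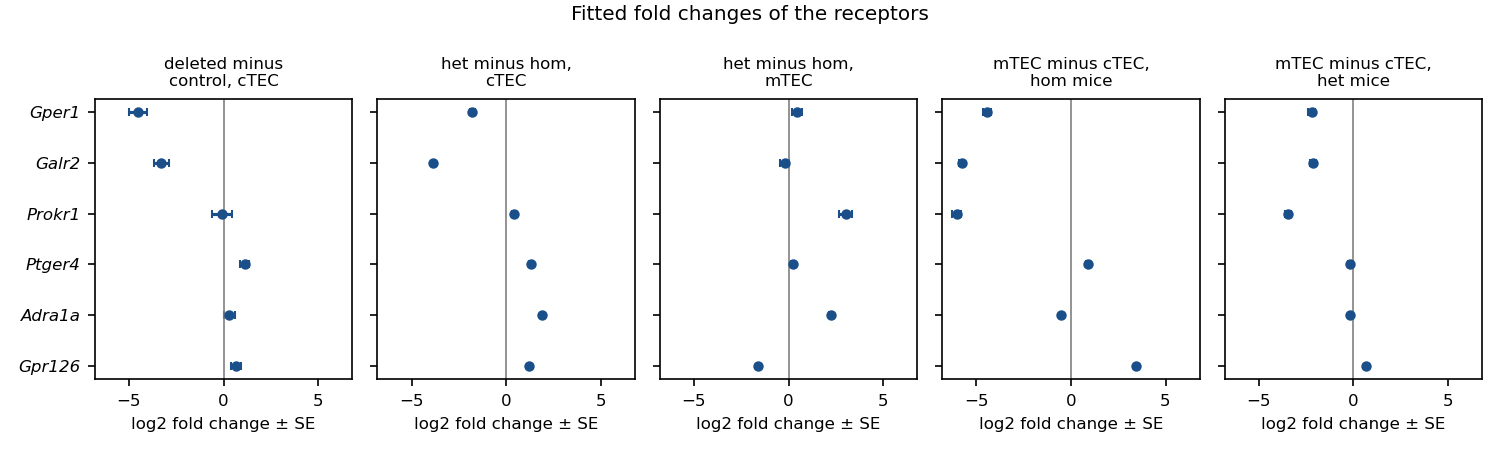
Fitted log2 fold changes of the receptors (points) with their standard errors (bars) in 5 comparisons, the direction of each given above its panel; positive values are higher in the group named first. Gper1 and Galr2 lie left of 0 in the deletion (-4.53 and -3.29) and in the cTEC dose comparison (-1.78 and -3.84), and Gpr126 changes sides between the cTEC (1.21) and mTEC (-1.59) dose comparisons.

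Set against all genes, the receptors' counts read as follows. In the deletion, 3 of the 6 passed an adjusted p of 0.05 (edgeR quasi-likelihood test) beside 1.97% of 15224 genes tested, 1 of them higher beside 0.282% and 2 lower beside 1.69%, and libraries did not overlap for the same number beside 5.94%. Because the receptors were picked from these values, nothing is read from these shares. In the cTEC dose comparison 6 of 6 passed beside 42.8% of 19222 genes, 4 higher beside 20.9% and 2 lower beside 21.9%, and libraries did not overlap for 6 beside 54.7%. In mTEC 3 of 6 passed beside 59.7%, 2 higher beside 28.9% and 1 lower beside 30.8%, and libraries did not overlap for 5 beside 80.1%. The median log2 difference of the 6 was 0.11 in the deletion, 0.82 in the cTEC and 0.34 in the mTEC dose comparison, against 0.01, 0.00 and 0.01 over all genes tested.

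Set against each other, the compartments divided the receptors in homozygous mice. There Prokr1, Galr2 and Gper1 were lower in mTEC than in cTEC by -6.04 ± 0.23, -5.78 ± 0.14 and -4.42 ± 0.21 on the log2 scale (mTEC minus cTEC), and Adra1a by -0.51 ± 0.09. Gpr126 was higher in mTEC by 3.46 ± 0.07 and Ptger4 by 0.89 ± 0.10. All 6 passed, beside 82.6% of genes tested, 2 higher beside 43.2% and 4 lower beside 39.4%, and libraries did not overlap for 6 beside 85.5%.

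In heterozygous mice each of these distances was smaller. It was -3.45 ± 0.16 for Prokr1, -2.14 ± 0.17 for Galr2, -2.21 ± 0.20 for Gper1 and 0.66 ± 0.07 for Gpr126, and the differences of Adra1a (-0.16 ± 0.08) and Ptger4 (-0.17 ± 0.10) did not pass, so that 4 of 6 were called beside 72.0% of genes, 1 higher beside 40.4% and 3 lower beside 31.6%, and libraries did not overlap for 5 beside 81.6%. The change of the distance, which is the same quantity as the dose effect in mTEC minus that in cTEC, was 3.64 ± 0.27 for Galr2, 2.59 ± 0.36 for Prokr1, 2.21 ± 0.30 for Gper1, -2.80 ± 0.10 for Gpr126 and -1.06 ± 0.14 for Ptger4. With Adra1a (above), 6 of 6 passed, beside 42.5% of genes, 4 positive beside 25.2% and 2 negative beside 17.2%.

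Relatives of the 6 in their own receptor families, such as the other galanin, prostanoid, adrenergic and adhesion receptors and the nuclear estrogen receptors, were counted from a list of 29 names, of which 27 are in the table. In deleted cTEC, 15 were tested and Prokr2 alone passed by edgeR. At an unadjusted p under 0.05 there were 4, beside 19.3% of all genes. DESeq2 called 1 higher and 2 lower, beside 319 higher and 772 lower among all genes. These values of all genes in the deletion hold for the later lists as well. In the cTEC dose comparison 6 of 24 rose and 6 fell in heterozygous libraries. The median log2 difference was 0.37 against 0.00 over all genes, and 0.27 with members at 3 counts or fewer set to that floor. For this and the later lists, the shares of all genes were 20.9% higher and 21.9% lower in heterozygous cTEC. In heterozygous mTEC they were 28.9% higher and 30.8% lower. Among the relatives higher in heterozygous cTEC was Ptgdr, the prostaglandin D2 receptor (1.60 ± 0.18, edgeR adjusted p = 1.03e-05). The adhesion receptors Gpr64 (0.51 ± 0.07, edgeR adjusted p = 3.05e-05) and Gpr56 (0.38 ± 0.08, edgeR adjusted p = 0.00266) were higher in heterozygous cTEC too.

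The adrenergic relatives of Adra1a went both ways in cTEC. The beta receptor Adrb1 was lower in heterozygous libraries by -0.80 ± 0.14 (edgeR adjusted p = 0.000408), and the alpha-2 receptors Adra2c and Adra2b by -0.66 ± 0.12 and -0.78 ± 0.18 (edgeR adjusted p = 0.000406 and 0.00375). Adra1b, an alpha-1 receptor like Adra1a, was lower at 0.0616 against 0.589 CPM (edgeR adjusted p = 0.000325). Adra1d, the remaining alpha-1 receptor, had 86 counts over the heterozygous and 1 count over the homozygous cTEC libraries (edgeR adjusted p = 5.51e-06). Adra1b was also lower in heterozygous mTEC (-1.71 ± 0.20, edgeR adjusted p = 1.69e-05), where Adra1a was higher.

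In mTEC, 2 of the 24 relatives rose and 12 fell in heterozygous libraries, with a median of -0.81 against 0.01 over all genes. Gpr128, an adhesion receptor, fell from 36.0 to 1.72 CPM (-4.36 ± 0.22, edgeR adjusted p = 1.80e-08). Adra2a (-1.79 ± 0.22), Ptgir, the prostacyclin receptor (-1.89 ± 0.21), and Ptgdr (-1.004 ± 0.18) were also lower (edgeR adjusted p = 2.08e-05, 8.80e-06 and 0.000378). The 2 higher were Gpr64 (0.76 ± 0.08, edgeR adjusted p = 1.04e-05) and Galr1, a Gi-coupled galanin receptor, at 1.18 against 0.417 CPM (1.51 ± 0.41, edgeR adjusted p = 0.00679), a call lost with DESeq2 (1.40) and without heterozygous or homozygous mTEC library 2 (1.34 and 1.36). Galr1 had 0 counts in all control and deleted libraries and 1 and 3 counts over the homozygous and heterozygous cTEC libraries.

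Ligands and the enzymes that make or remove them did not pass in the deletion, 0 of 19 tested (edgeR), beside 1.97% of all genes. At an unadjusted p under 0.05 there were 3 of 19, beside 19.3% of all genes, and DESeq2 called 1. In heterozygous cTEC, 8 of 27 rose and 6 fell (median -0.14 against 0.00). The prostaglandin synthesis enzymes Ptgs1, a cyclooxygenase, and Ptges, a prostaglandin E synthase, rose by 1.69 ± 0.18 and 1.49 ± 0.15 on the log2 scale (edgeR adjusted p = 4.63e-06 and 3.37e-06). Ptges3 was lower (-0.24 ± 0.06, edgeR adjusted p = 0.00533), and Ptges2 (-0.11 ± 0.10) and Ptgs2 (-0.95 ± 0.57) did not pass. Prnp, whose product the Gpr126 receptor binds in mice, fell by 0.58 ± 0.05 (edgeR adjusted p = 1.76e-06).

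In heterozygous mTEC, 7 of the 27 ligand genes rose and 14 fell (median -0.44 against 0.01). Gal, the galanin precursor, fell from 23.5 to 3.06 CPM (-2.91 ± 0.17, edgeR adjusted p = 5.79e-08), and Ptgs2, the inducible cyclooxygenase, from 279.3 to 35.1 CPM (-2.97 ± 0.20, edgeR adjusted p = 1.54e-07). Maoa, which degrades monoamines, rose by 0.57 ± 0.10 (edgeR adjusted p = 0.000224).

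Of the G protein subunits, 0 of 24 passed in the deletion (edgeR). At an unadjusted p under 0.05 there were 8, beside 19.3% of all genes, and DESeq2 called 4. In the dose comparisons 4 of 29 rose and 9 fell in heterozygous cTEC (median -0.16), and 7 rose and 12 fell in heterozygous mTEC (median -0.11). In cTEC, the Gq-class subunit Gna14 was at 43.6 against 14.9 CPM (1.42 ± 0.14, edgeR adjusted p = 1.90e-06), while Gna11 of the same class was lower (-0.47 ± 0.05, edgeR adjusted p = 1.24e-05). The beta subunit Gnb4 fell from 68.6 to 28.7 CPM (-1.39 ± 0.08, edgeR adjusted p = 1.52e-08). In mTEC, the Gi-class subunit Gnao1 rose (0.98 ± 0.09, edgeR adjusted p = 3.16e-06) and the beta subunit Gnb3 fell from 285.8 to 95.0 CPM (-1.57 ± 0.13, edgeR adjusted p = 8.50e-07).

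Among effectors and the proteins that end signalling, 1 of 46 passed in the deletion (edgeR), with 9 at an unadjusted p under 0.05. DESeq2 called 1 higher and 1 lower. Rgs14, an RGS protein that speeds the turn-off of Gi subunits, was at 5.30 CPM in deleted and 31.4 in control cTEC (-2.61 ± 0.48, edgeR adjusted p = 0.0256), a call lost without control library 3 or any 1 of the deleted libraries, at -2.80 to -2.49. In heterozygous cTEC, 14 of 47 rose and 13 fell (median 0.03). Adcy2, an adenylyl cyclase, rose from 0.482 to 6.33 CPM (3.57 ± 0.18, edgeR adjusted p = 6.19e-09) and Rgs10 from 2.19 to 8.92 CPM (1.89 ± 0.14, edgeR adjusted p = 2.04e-07), while the cyclic AMP phosphodiesterase Pde4b fell by 0.87 ± 0.06 (edgeR adjusted p = 1.74e-07) and the receptor kinase Grk5 by 1.03 ± 0.09 (edgeR adjusted p = 7.98e-07). In heterozygous mTEC 8 of 47 rose and 14 fell (median -0.03), with Plcb2, a phospholipase C, lower (-1.12 ± 0.11, edgeR adjusted p = 4.72e-06).

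Known target genes of cyclic AMP and its transcription factor CREB were 0 of 18 past the threshold in the deletion (edgeR, median 0.32), with 2 at an unadjusted p under 0.05 and 0 called by DESeq2. In heterozygous cTEC 9 of 20 rose and 3 fell, with a median of 0.45 and of 0.33 after 1 gene at the floor in both groups was left out. Id2, a transcription inhibitor, rose from 9.11 to 75.8 CPM (2.92 ± 0.20, edgeR adjusted p = 7.64e-08) and Dusp1, a phosphatase induced by many stimuli, from 9.21 to 74.5 CPM (2.88 ± 0.29, edgeR adjusted p = 3.06e-06). Both respond to other signals as well. Among the 3 that fell were Pde4b (-0.87 ± 0.06, edgeR adjusted p = 1.74e-07) and Pde4d (-0.48 ± 0.09, edgeR adjusted p = 0.000676). In heterozygous mTEC 6 rose and 8 fell (median 0.05), among them the nuclear receptor Nr4a2, which rose by 1.20 ± 0.15 (edgeR adjusted p = 2.11e-05). Ptgs2, which is also on this list, was lower there (-2.97 ± 0.20, edgeR adjusted p = 1.54e-07).

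Receptors named only by Gpr and a number, counted as a background for the 6, numbered 83 in the table. In the deletion 0 of 41 rose and 1 fell, Gpr25, at 0.470 against 2.89 CPM (-2.65 ± 0.46, edgeR adjusted p = 0.0205). This call was lost without control library 3 or any 1 of the deleted libraries, at -2.85 to -2.41. At an unadjusted p under 0.05 there were 8, and DESeq2 called 0 higher and 4 lower. In heterozygous cTEC 13 of 66 rose and 12 fell, beside 20.9% and 21.9% of all genes, with Gpr25 again lower (7.21 to 0.352 CPM, edgeR adjusted p = 9.16e-09). In heterozygous mTEC 8 of 66 rose and 32 fell (median -0.49), beside 28.9% and 30.8% of all genes. Gpr50, a relative of the melatonin receptors, was lower (35.8 to 8.20 CPM, edgeR adjusted p = 1.63e-07).

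**Figure D4:**
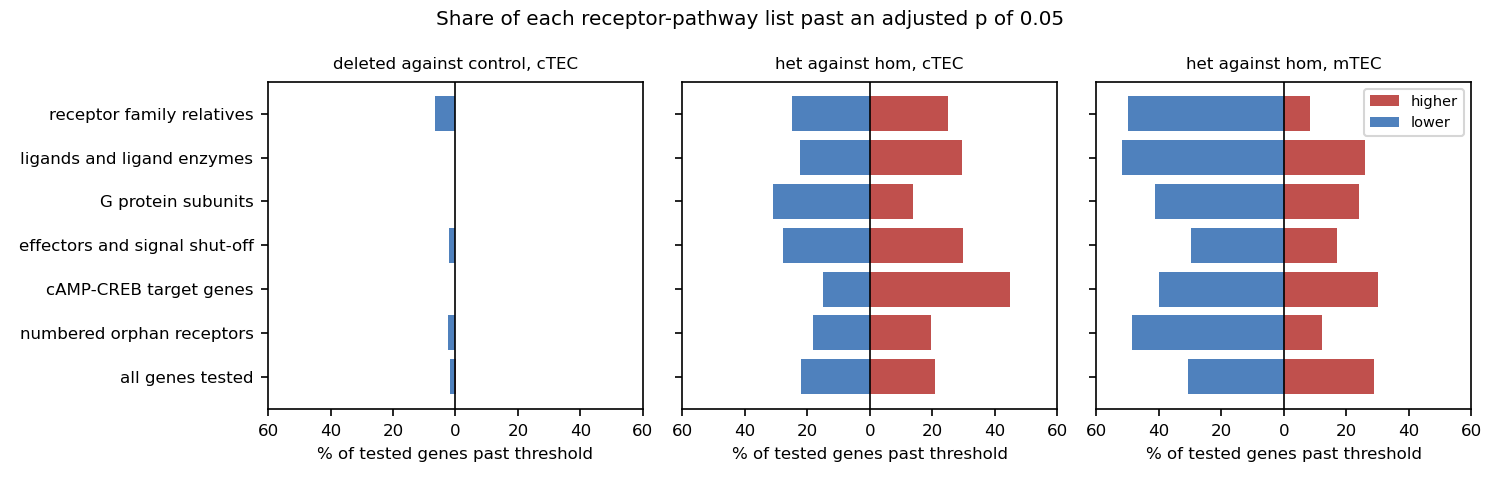
Share of the tested genes of each list, and of all genes tested, that were higher (right) or lower (left) at an adjusted p of 0.05, for the deletion and for het against hom in cTEC and in mTEC. In the deletion panel 3 listed genes stand left of 0, and in mTEC the relatives (12 of 24) and numbered receptors (32 of 66) lie mostly on the left, beside 30.8% of all genes.

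The genes whose log2 CPM ran most like each receptor over all 20 libraries, among 12750 genes with a mean CPM of at least 2, are given by Pearson's r as a description. The libraries fall into the 6 groups and share them, so r mostly restates the group means. Nearest to Galr2 were Pithd1 (r = 0.990), the Notch ligand Dll4 (0.979) and Shc4 (0.978). Nearest to Gper1 were Tspan18 (0.960), Plekhb1 (0.939) and Creg2 (0.935).

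For Prokr1 these were Wbp11 (r = 0.983), Adamts18 (0.981) and Ipo11 (0.980), and for Ptger4 they were Mybpc2 (0.962), Pdgfd (0.951) and Ifnar2 (0.950). Within the transgenic libraries alone, Pdgfd was at 0.82 and Ifnar2 at 0.78. For Gpr126 they were Itfg3 (0.957), Vsig10 (0.947) and Pvrl2 (0.946), and within the deletion set alone Vsig10 was at 0.77 and Pvrl2 at 0.83. Adra1a had the lowest values, with Notch1 (r = 0.866), Tert (0.854) and Unc13b (0.830). For Notch1 and Tert the values were 0.941 and 0.965 within the transgenic libraries and 0.597 and 0.598 within the deletion set.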

How the data were processed

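Per the submitters' processing notes, TopHat2 2.0.10, Trimmomatic 0.32 and featureCounts were among the tools used, on mm10/GRCm38; which annotation was used, and whether counting used strand, is not given in the sources used here. The deposited table holds raw counts of reads per gene for 20 libraries, made by the authors without normalization. From it, CPM were computed on library totals, and genes were tested with edgeR 4.0.16 (quasi-likelihood, TMM, filterByExpr with minimum count 10 and total 15, two-sided, Benjamini-Hochberg over all genes, threshold 0.05). The deletion was fitted on its 10 libraries and the transgenic groups in 1 fit of 10 libraries. The SE is the fold change divided by the square root of F. The procedure was tested on simulated data. Alternatives were DESeq2 1.42.0, other scalings, no filter, a replicate block and single libraries left out, plus both libraries numbered 2 left out, chosen after seeing the data. The receptors and the gene lists were chosen with earlier results of these data known. From each list, genes past the threshold were named by smallest p, and all family relatives could be named. RefSeq promoter windows and gene spans (GRCm38.p6) were matched by symbol. Chromatin immunoprecipitation and ATAC samples were not analysed here. Some listed genes and 2 of the marker lists are not reported here.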

Additional observations from a re-analysis of the deposited data

Results flagged for a closer look

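The dose difference of the receptors, heterozygous minus homozygous by label, differed in size or sign between mTEC and cTEC. The receptors were chosen from these values, so the sizes are descriptions and support no statement about them. The dose effect in mTEC minus that in cTEC was 2.21 for Gper1 (higher in 2 mTEC and lower in 3 cTEC heterozygous libraries), 3.64 for Galr2, 2.59 for Prokr1, -1.06 for Ptger4, 0.35 for Adra1a and -2.80 for Gpr126, on the log2 scale. For Gper1, the mTEC dose difference of 0.43 ± 0.27 did not pass, and library 1 of either mTEC group held 89 counts. The difference for Adra1a did not pass under other scalings, with DESeq2, with low counts kept, or without 1 of 6 libraries. Foxn1 itself was higher in heterozygous mTEC and lower in heterozygous cTEC (0.66 and -0.36).

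Prokr1 stood at 8.48 CPM in control library 2, far from the other 4 controls, which lay between 1.23 and 2.86 CPM. The gap was flagged by Dixon's test for a value far from its group, on CPM without logarithms. If values spread normally, about 1 in 20 unrelated groups would show such a gap by chance, and 12 groups were looked at. Whether the CPM spread normally was not tested. Library 2 of the deleted group was also the highest, at 7.21 CPM.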

How the results depend on the processing

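Of 558 receptor differences recomputed under the alternatives, 496 moved by less than the spread between libraries, 62 moved by more, and 0 changed direction after a call. In the deletion, 43 genes were higher and 257 lower; DESeq2 called 319 and 772, the replicate block 398 and 822, leaving out both libraries numbered 2 69 and 405, and leaving out single libraries 0 to 188 and 27 to 732. Listed receptor-pathway genes, 0 higher and 3 lower, became 5 and 9 with DESeq2, 7 and 10 with the block, and 0 to 2 and 0 to 7 without single libraries. The block raised the receptors called higher from 1 to 2, adding Gpr126 (0.68), and single omissions gave 0 to 1. Library numbers are shared between groups, and same-numbered libraries deviated together in part (correlations 0.60, 0.75, 0.09, 0.35 and 0.45 in the deletion set and 0.05 to 0.07 in the transgenic sets). In the deletion set, control and deleted libraries numbered 1, 2, 4 and 5 were each other's closest match, and those numbered 3 were not. The labels give no pairing, so the main fit holds no block. Whether same-numbered libraries share a batch was not tested. In mTEC, genes higher went from 5550 to 3430 with DESeq2, and listed genes higher from 38 to 25. Genes with a positive difference of dose effects went from 4848 to 3164 with DESeq2 and 3106 without normalization factors. Without factors the median of all genes shifted by 0.13 in cTEC dose, 0.24 in homozygous subset and -0.16 in the difference of dose effects, and with RLE by -0.13 in mTEC dose. The lower share of calls went from 51.1% to 32.5% (cTEC dose, no factors), from 51.6% to 64.4% (mTEC dose, RLE), from 47.7% to 37.5% (homozygous subset, no factors) and from 40.6% to 57.01% (difference of dose effects, no factors). The cause was not tested. Prokr1 in homozygous mTEC rests on 6 and 7 counts, which limits its dose difference.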
